A study of Mus musculus with 4 samples.

Results

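NF-kappaB, cytokine and chemokine transcripts were followed in mouse mammary tumour cells. The set holds 46 genes, chosen by function: the NF-kappaB subunits, their inhibitors and feedback genes, adhesion molecules, cytokines with their receptors, chemokines and prostaglandin synthesis enzymes. All 46 had a row among the 22440 rows of the mammosphere table, and 36 had one among the 11708 rows of the knockdown table. Each gene had a single row, listed under its own symbol alone. The genes were chosen with earlier results from these libraries known, so their counts describe these libraries and test nothing.

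Polyadenylated RNA was sequenced from MMTV-Myc cells, a mouse mammary tumour line in which the MMTV promoter drives Myc, with 1 library in each of 4 groups. The first comparison set mammosphere cells (day 20), grown on low-attachment plates with EGF, bFGF and a supplement and split repeatedly, against bulk cells (day 0), grown with serum and insulin. Both carried the genotype label wild type. The second set cells with the Cbx8 hairpin sh68 against cells with a control hairpin, labelled shLuc in one place and shScr in another. The control hairpin cells also carried the genotype label wild type, and the sh68 cells the label Cbx8 knockdown. Cbx8 is a chromodomain subunit of Polycomb repressive complex 1. All 4 groups carry the Myc transgene. The labels describe lentiviral delivery and constant puromycin selection for the Cbx8 hairpins, and do not say whether the hairpin cultures grew attached or as spheres. With 1 library a group there is no estimate of spread between cultures, so each difference is between 2 libraries. Sequencing depth is unknown, since the tables hold FPKM (reads normalised for how long a transcript is and how many were mapped) and no counts.

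NF-kappaB is a family of paired transcription factors that IkappaB proteins hold in the cytoplasm. Signals such as tumour necrosis factor, interleukin 1 or microbial products lead to loss of IkappaB, and the released factors bind kappaB sites at genes for cytokines, chemokines and adhesion molecules. They also bind at genes for their own inhibitors, which close the response. In mammary tumours the secreted products attract neutrophils and monocytes, and prostaglandin synthesis by the inducible cyclooxygenase is a known accompaniment.

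The kappaB consensus, a motif of 10 letters, was searched on both strands in RefSeq promoter windows (GRCm38.p6) that reach from 250 bases before to 50 bases after each annotated start. Of the 46 genes, 36 had a window, and 15 of these 36 (41.7%) held the motif in at least 1 window, against 2581 of 27025 genes (9.55%) over all symbols. The 15 were Nfkb2, Rel, Nfkbia, Nfkbie, Tnfaip3, Tnip1, Tnfaip2, Il6, Lif, Csf1, Cxcl1, Cxcl2, Cxcl3, Ccl20 and Ptgds. Nfkb1, Relb, Nfkbiz, Vcam1, Cxcl5, Cxcl16, Ccl2, Ccl5, Ccl7 and Csf3 had no window and were not searched. A match describes the letters and does not show a bound site. The 6 windows shown belong to genes on which the results turn: the chemokines Cxcl1, Cxcl2 and Cxcl3, which lie close together and were all lower in mammospheres, Ccl20, which was higher there, and the feedback genes Nfkbia and Tnfaip3. Capitals mark the motif.
Cxcl1, chr5:90890995-90891294, plus strand: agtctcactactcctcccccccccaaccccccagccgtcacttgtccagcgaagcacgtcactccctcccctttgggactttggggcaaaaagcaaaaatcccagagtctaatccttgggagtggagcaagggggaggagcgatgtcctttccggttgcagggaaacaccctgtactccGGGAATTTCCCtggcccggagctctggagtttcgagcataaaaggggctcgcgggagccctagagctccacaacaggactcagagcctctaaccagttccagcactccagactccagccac
Cxcl2, chr5:90903649-90903948, plus strand: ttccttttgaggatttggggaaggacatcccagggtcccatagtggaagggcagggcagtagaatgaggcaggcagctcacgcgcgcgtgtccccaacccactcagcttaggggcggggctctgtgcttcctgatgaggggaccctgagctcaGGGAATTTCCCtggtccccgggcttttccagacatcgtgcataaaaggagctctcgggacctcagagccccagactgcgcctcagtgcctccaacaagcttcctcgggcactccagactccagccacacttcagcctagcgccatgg
Cxcl3, chr5:90785851-90786150, plus strand: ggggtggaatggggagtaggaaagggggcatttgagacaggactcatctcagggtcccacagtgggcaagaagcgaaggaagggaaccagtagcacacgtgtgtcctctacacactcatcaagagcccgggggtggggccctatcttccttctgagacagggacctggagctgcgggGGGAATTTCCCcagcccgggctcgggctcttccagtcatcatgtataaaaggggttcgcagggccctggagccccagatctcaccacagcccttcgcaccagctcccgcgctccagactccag
Ccl20, chr1:83116516-83116815, plus strand: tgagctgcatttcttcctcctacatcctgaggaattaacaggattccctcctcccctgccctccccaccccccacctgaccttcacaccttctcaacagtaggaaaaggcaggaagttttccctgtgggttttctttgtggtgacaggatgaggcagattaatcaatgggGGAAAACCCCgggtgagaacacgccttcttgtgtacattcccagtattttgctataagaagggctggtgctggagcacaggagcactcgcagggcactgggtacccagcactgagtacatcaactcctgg
Nfkbia, chr12:55492598-55492897, minus strand: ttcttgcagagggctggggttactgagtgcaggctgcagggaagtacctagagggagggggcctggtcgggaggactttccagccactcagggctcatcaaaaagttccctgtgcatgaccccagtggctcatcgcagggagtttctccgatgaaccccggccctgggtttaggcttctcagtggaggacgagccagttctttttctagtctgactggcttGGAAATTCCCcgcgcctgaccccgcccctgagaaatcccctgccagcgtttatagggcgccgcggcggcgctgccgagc
Tnfaip3, chr10:19015361-19015660, minus strand: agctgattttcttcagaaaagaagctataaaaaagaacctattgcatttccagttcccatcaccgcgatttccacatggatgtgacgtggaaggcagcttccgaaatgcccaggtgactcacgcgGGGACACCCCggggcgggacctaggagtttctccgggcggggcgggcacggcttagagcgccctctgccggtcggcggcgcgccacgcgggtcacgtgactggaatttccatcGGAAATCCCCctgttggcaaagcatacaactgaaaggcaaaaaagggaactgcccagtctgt

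Cxcl1, Cxcl2 and Cxcl3 share the run GGGAATTTCCC, which holds overlapping matches on both strands and begins 71, 97 and 73 bases before the start. The single match of Ccl20 begins 80 bases before the start and that of Nfkbia 29 bases. Tnfaip3 has matches that begin 125 and 12 bases before the start of the window shown. Among genes with a window, the motif was present in 11 of the 27 that were at least 2-fold lower in mammospheres. It was also present in Ccl20, the single higher gene with a window, and in 2 of the 7 that did not reach 2-fold. Ptgds, too low in both libraries to be counted, held it as well. Over all genes with a window the share was 9.55%.

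In mammospheres most of the set was lower than in bulk cells. Fold changes were taken as log2 of the ratio with 1 FPKM added to each value, which shrinks the differences of genes at low levels, and genes were counted at 2-fold or more among those at 1 FPKM or above in either library. Of 45 such genes, 35 were at least 2-fold lower and 3 at least 2-fold higher. Over all 11603 rows counted the same way, 17.3% were lower and 3.54% higher. At 1.5-fold, 3 were higher and 38 lower, where 9.86% and 30.7% of all rows were. At 4-fold, 3 were higher and 25 lower, where 0.526% and 5.54% of all rows were. The median log2 fold change was −2.46 for the 45 genes and −0.24 over all rows. By itself the median row expressed in both libraries was shifted by −0.21. With fold changes centred on it, 33 of the 45 were lower, 3 were higher and the median was −2.25. The calls lost were Ccl2, at −0.96 after centring, and Ptges, at −0.85. The 3 higher genes were Cxcl5, Csf3 and Ccl20. Of the 45 genes, 11 were under 1 FPKM in the mammosphere library and 0 in the bulk library, where 9.78% and 2.78% of all rows were. The 11 were Icam1, Tnf, Il1a, Il1b, Il1rn, Il33, Il6, Osmr, Csf2, Cxcl12 and Ccl7.

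The authors tested 28 of the 46 rows. At q under 0.05 the authors' deposited table calls 3 of these 28 higher and 19 lower, where 1.73% and 10.2% of all 4045 tested rows were. The 18 untested rows did not exceed 12.6 FPKM in the mammosphere library or 24.5 FPKM in the bulk library, and 14 of them were at least 2-fold lower.

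**Figure D1:**
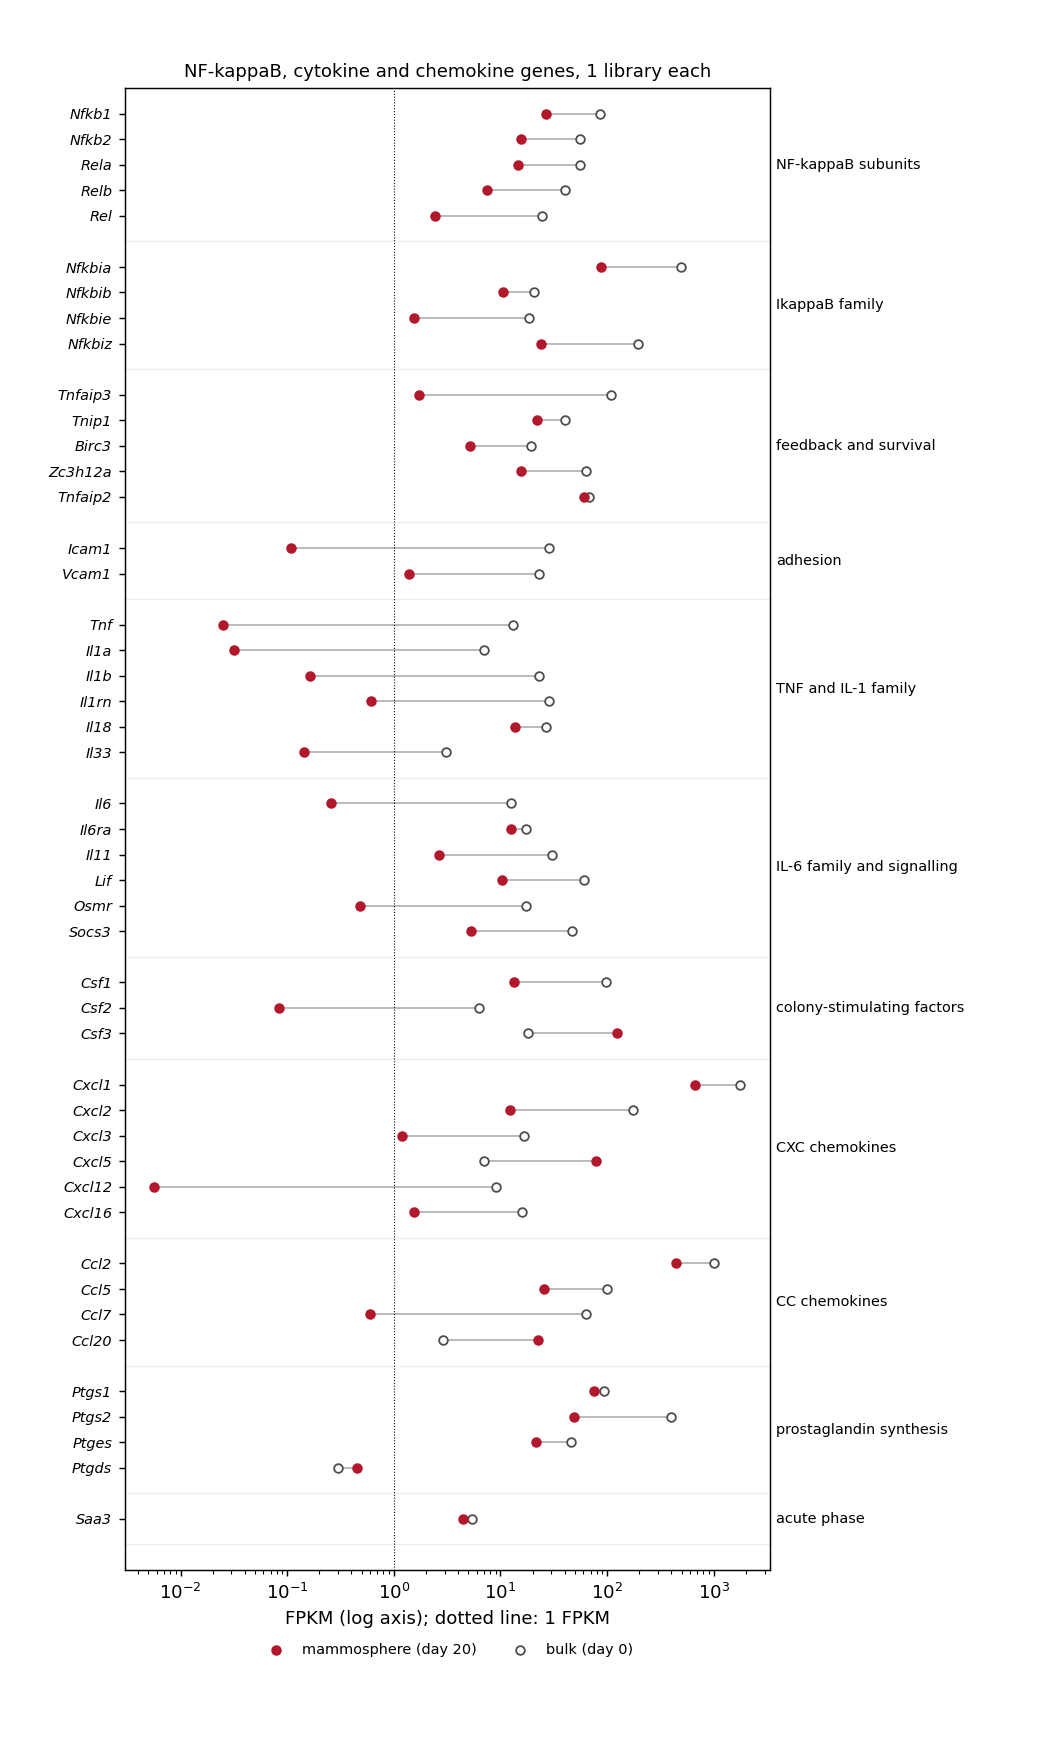
FPKM of the 46 genes (log axis) in the mammosphere library (filled circles) and the bulk library (open circles), 1 library each, grouped by role. The filled circle lies left of the open one for most genes, and right of it for Csf3, Cxcl5, Ccl20 and, under 1 FPKM in both libraries, Ptgds.

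All 5 NF-kappaB subunit genes were at least 2-fold lower in mammospheres. Nfkb1, the precursor of the p50 subunit, was at 27.0 FPKM in mammospheres and 86.1 FPKM in bulk cells (log2 fold change −1.64); q was 0.0263 in the authors' deposited table. Rela, the p65 subunit with a strong activation domain, was at 14.8 FPKM in mammospheres and 56.1 in bulk cells (log2 fold change −1.86). Nfkb2, the precursor of p52, was at 15.5 FPKM in mammospheres and 56.0 in bulk cells. These 3 subunits were lower but still well detected in mammospheres. Relb, the partner of p52, was at 7.46 FPKM in mammospheres and 40.3 in bulk cells (log2 fold change −2.29). Rel, a subunit prominent in lymphocytes and macrophages, was at 2.44 FPKM in mammospheres and 24.5 in bulk cells (log2 fold change −2.89), a row the authors did not test. Rel and Relb were thus the furthest apart between the libraries among the subunits. Summed over the 5 genes, the level was 67.1 FPKM in mammospheres and 263 in bulk cells. The Nfkb2 row shares its locus in the table with Psd, so its level is less certain.

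The IkappaB genes and the feedback genes, many of them direct NF-kappaB targets, were lower by more than the subunits in several cases. Nfkbia, the classical inhibitor IkappaB alpha, was at 88.0 FPKM in mammospheres and 488 in bulk cells (log2 fold change −2.46). Nfkbiz, a nuclear IkappaB that helps turn on secondary response genes, was at 24.0 FPKM in mammospheres and 196 in bulk cells (log2 fold change −2.98). Nfkbie, IkappaB epsilon, was at 1.54 FPKM in mammospheres and 18.7 in bulk cells. Nfkbib, IkappaB beta, did not reach 2-fold, at 10.5 FPKM in mammospheres and 20.9 in bulk cells (log2 fold change −0.93). Tnfaip3, the ubiquitin editing enzyme A20, was at 1.71 FPKM in mammospheres and 109.5 in bulk cells (log2 fold change −5.35). Its q is listed as 0 in the authors' deposited table. The RNase Zc3h12a, which degrades cytokine messages, was at 15.6 FPKM in mammospheres and 63.1 in bulk cells, and the apoptosis inhibitor Birc3 at 5.13 and 19.5 FPKM in those libraries. The A20 binding partner Tnip1, at 22.2 FPKM in mammospheres and 40.0 in bulk cells, and Tnfaip2, at 60.7 and 67.9 FPKM in the same order, did not reach 2-fold. Tnip1 still had q = 0.0262 in the authors' deposited table, and Tnfaip2 had q = 0.959 there.

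Both adhesion molecules were low in mammospheres. Icam1, a ligand of leukocyte integrins, was at 0.110 FPKM in mammospheres and 28.4 in bulk cells (log2 fold change −4.73). Vcam1, also an integrin ligand, was at 1.4 FPKM in mammospheres and 22.9 in bulk cells (log2 fold change −3.32), an untested row.

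Of the 6 genes of the tumour necrosis factor and interleukin 1 families, 5 were at least 2-fold lower. Tnf was at 0.0249 FPKM in mammospheres and 13.0 in bulk cells, and Il1b at 0.164 and 23.2 FPKM in those libraries. Il1a was at 0.0316 FPKM in mammospheres and 7.03 in bulk cells. Il1rn, the secreted antagonist of the interleukin 1 receptor, was lower together with the agonists, at 0.610 FPKM in mammospheres and 28.5 in bulk cells (log2 fold change −4.19). Il33, an alarmin, was at 0.143 FPKM in mammospheres and 3.09 in bulk cells. The exception was Il18, which is kept in epithelial cells as a precursor, at 13.8 FPKM in mammospheres and 26.8 in bulk cells (log2 fold change −0.91); q was 0.571 in the authors' deposited table.

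In the interleukin 6 family, 5 of 6 genes were at least 2-fold lower. Il6 was at 0.260 FPKM in mammospheres and 12.5 in bulk cells, and Il11 at 2.67 and 30.5 FPKM in those libraries. Lif, which signals through the same shared receptor chain, was at 10.4 FPKM in mammospheres and 60.4 in bulk cells (log2 fold change −2.42). The receptor genes differed from each other. Osmr, the oncostatin M receptor chain, was at 0.479 FPKM in mammospheres and 17.3 in bulk cells (log2 fold change −3.63), whereas Il6ra, the ligand-binding chain for interleukin 6, was at 12.6 and 17.5 FPKM in the same order (log2 fold change −0.44). Socs3, the STAT3-induced feedback inhibitor of these receptors, was at 5.30 FPKM in mammospheres and 47.4 in bulk cells (log2 fold change −2.94).

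The colony-stimulating factors split. Csf3, which encodes the granulocyte factor G-CSF, was at 124 FPKM in mammospheres and 18.2 in bulk cells (log2 fold change 2.71); q was 6.42e-05 in the authors' deposited table. It ranked 3 among the 46 genes by level in mammospheres and 32 in bulk cells. Csf1, the macrophage factor, was at 13.4 FPKM in mammospheres and 97.2 in bulk cells (log2 fold change −2.77). Csf2, the granulocyte and macrophage factor GM-CSF, was at 0.0834 FPKM in mammospheres and 6.29 in bulk cells. Csf3 was thus higher and both Csf1 and Csf2 were lower in mammospheres.

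The CXC chemokines also split, with genes of one chromosome 5 interval on either side. Cxcl5, a neutrophil chemokine that acts through CXCR2, was at 78.7 FPKM in mammospheres and 6.99 in bulk cells (log2 fold change 3.32); q was 5.52e-05 in the authors' deposited table. Cxcl1, Cxcl2 and Cxcl3 act through the same receptor and were lower. Cxcl1, the most abundant gene of the set in both libraries, was at 669 FPKM in mammospheres and 1774 in bulk cells (log2 fold change −1.41); q was 0.209 in the authors' deposited table. Cxcl2 was at 12.3 FPKM in mammospheres and 177 in bulk cells (log2 fold change −3.73). Cxcl3 was at 1.20 FPKM in mammospheres and 16.7 in bulk cells (log2 fold change −3.01). Of the summed level of these 4 ligands, Cxcl1 made up 87.9% in mammospheres and 89.9% in bulk cells, Cxcl5 10.3% in mammospheres and 0.354% in bulk cells, and Cxcl2 1.62% in mammospheres and 8.94% in bulk cells. Transcripts of Cxcl2 and Cxcl3 share an exact run of 110 bases in the GENCODE vM21 annotation, longer than the 100-base reads, so reads could be divided between them. Cxcl5 shared no run over 12 bases with the other 3.

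On chromosome 5 (mm9) the table places Cxcl5 at 91188324 to 91190651, Cxcl3 26.8 kb away, Cxcl1 132 kb away and Cxcl2 145 kb away. Between them lie Ppbp, Pf4 and Cxcl15, genes outside the set that are named for their position. The platelet chemokine Pf4 was at 2.73 FPKM in mammospheres and 9.37 in bulk cells, and Ppbp and Cxcl15 were under 1 FPKM in both libraries. Cxcl5 was therefore the single gene of this interval that was higher in mammospheres by 2-fold. The chemokines without CXCR2 activity were lower. Cxcl12, a stromal chemokine that binds CXCR4, was at 0.00566 FPKM in mammospheres and 9.17 in bulk cells, and Cxcl16 at 1.55 and 16.0 FPKM in those libraries. The Cxcl16 row shares its locus with Zmynd15, which was under 1 FPKM in both libraries.

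**Figure D2:**
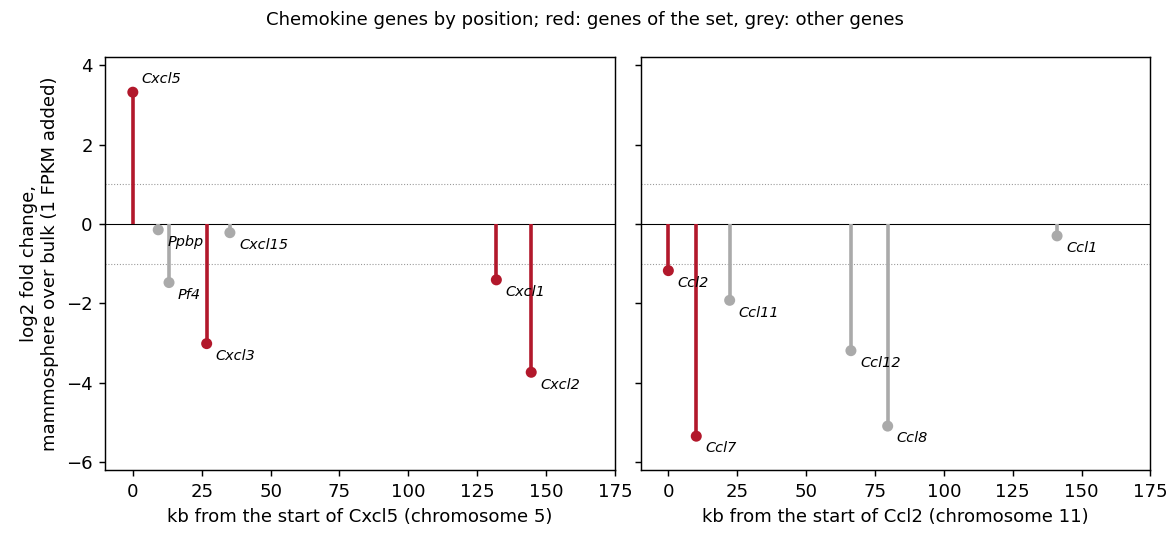
Log2 fold change of mammosphere over bulk cells (1 FPKM added) for the genes from Cxcl5 to Cxcl2 on chromosome 5 (left) and from Ccl2 to Ccl1 on chromosome 11 (right), against distance in kb. Red points are genes of the set, grey points other genes, and dotted lines mark 2-fold. Cxcl5 (3.32) is the only point above 0 in either interval.

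Among the CC chemokines, Ccl20 was higher and 3 genes were lower, of which Ccl2 lay near the limit. Ccl20, which attracts CCR6-bearing lymphocytes and dendritic cells, was at 22.3 FPKM in mammospheres and 2.91 in bulk cells (log2 fold change 2.57); q was 5.91e-05 in the authors' deposited table. Ccl2, a monocyte chemokine, was at 447 FPKM in mammospheres and 1010 in bulk cells (log2 fold change −1.17); q was 0.261 in the authors' deposited table. Its neighbour Ccl7, whose start lies 10.1 kb away on chromosome 11, was at 0.599 FPKM in mammospheres and 63.9 in bulk cells (log2 fold change −5.34). The pair thus differed in how far apart the libraries were. Ccl8, further along the same interval and outside the set, was at 0.545 FPKM in mammospheres and 51.5 in bulk cells, and Ccl12 was listed at 0 in mammospheres and at 8.12 FPKM in bulk cells. Ccl5, a T cell and monocyte chemokine, was at 25.6 FPKM in mammospheres and 99.6 in bulk cells (log2 fold change −1.92); q was 0.0141 in the authors' deposited table.

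Prostaglandin synthesis differed by enzyme. Ptgs2, the inducible cyclooxygenase, was at 49.4 FPKM in mammospheres and 394 in bulk cells (log2 fold change −2.97). Ptgs1, the constitutive cyclooxygenase, was at 76.0 FPKM in mammospheres and 92.8 in bulk cells (log2 fold change −0.28); q was 0.908 in the authors' deposited table. By level, Ptgs1 exceeded Ptgs2 in mammospheres, and Ptgs2 exceeded Ptgs1 in bulk cells. Ptges, the inducible prostaglandin E synthase, was at 21.4 FPKM in mammospheres and 45.7 in bulk cells (log2 fold change −1.06), just past 2-fold, and had q = 0.225 in the authors' deposited table. Ptgds, the lipocalin-type prostaglandin D synthase, was under 1 FPKM in both libraries, at 0.456 FPKM in mammospheres and 0.298 in bulk cells, and was not counted. Saa3, an acute phase protein, was at 4.47 FPKM in mammospheres and 5.46 in bulk cells (log2 fold change −0.24).

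Other genes of the pathway were taken from lists drawn up by function. Of 26 measured receptors and adaptors, 5 were at least 2-fold lower and none was higher (median log2 fold change −0.48), a share near the 17.3% of all rows that were lower. The lipopolysaccharide coreceptor Cd14 was at 7.24 FPKM in mammospheres and 41.5 in bulk cells, Tlr2 at 3.71 and 30.5 FPKM in those libraries, and Il1r1 at 5.90 and 18.0 FPKM in the same order. Of 19 kinases and regulators, 8 were lower and 1 was higher (median −0.76). The higher one was Ikbke, an IkappaB kinase relative that acts in interferon induction, at 24.4 FPKM in mammospheres and 6.30 in bulk cells (log2 fold change 1.80). Nfkbid, a nuclear IkappaB, was at 2.39 FPKM in mammospheres and 17.5 in bulk cells. Of 46 further measured cytokine and chemokine genes with their receptors, 33 were lower and 1 higher (median −1.59). Cish, a STAT5-induced feedback gene, was at 0.724 FPKM in mammospheres and 41.5 in bulk cells. Of 13 measured prostaglandin and leukotriene genes, 3 were lower and 2 higher (median −0.05). The prostacyclin receptor Ptgir was among the higher ones, at 4.32 FPKM in mammospheres and 0.386 in bulk cells, and Alox5ap, the activating protein of leukotriene synthesis, was at 0.0924 FPKM in mammospheres and 9.14 in bulk cells.

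Most cell type markers were lower along with these genes, and their part in the result was not tested. Of 18 leukocyte markers, 17 were at least 2-fold lower (median log2 fold change −3.60) and 8 were listed at 0 in mammospheres, among them Tyrobp, C1qa, C1qb and Ctss. The macrophage lysozyme Lyz2 was at 0.0737 FPKM in mammospheres and 122 in bulk cells, and the common leukocyte antigen Ptprc at 0.0184 and 6.64 FPKM in those libraries. The exception was the integrin Itgb2, at 60.3 FPKM in mammospheres and 13.7 in bulk cells. Without Itgb2 the summed leukocyte level was 1.5 FPKM in mammospheres and 357 in bulk cells. Of 11 measured fibroblast markers, 10 were lower, with summed levels over the list of 1.09 FPKM in mammospheres and 416 in bulk cells, and Lum, Thy1, Dpt and Postn were listed at 0 in mammospheres. All 3 measured endothelial markers were lower, and all 8 genes of that list summed to 0.339 FPKM in mammospheres and 9.18 in bulk cells. Of 6 measured epithelial markers, 4 were lower. The keratin Krt18 was at 58.2 FPKM in mammospheres and 570 in bulk cells, whereas the keratin Krt19 was at 9.65 and 9.08 FPKM in those libraries. The epithelial adhesion genes Epcam and Cdh1 were low in both libraries, at 0.0908 and 0.0135 FPKM in mammospheres against 1.06 and 1.04 FPKM in bulk cells, so the epithelial markers at high levels were keratins. In whole cultures, fewer cells of a type and less RNA per cell cannot be told apart.

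**Figure D3:**
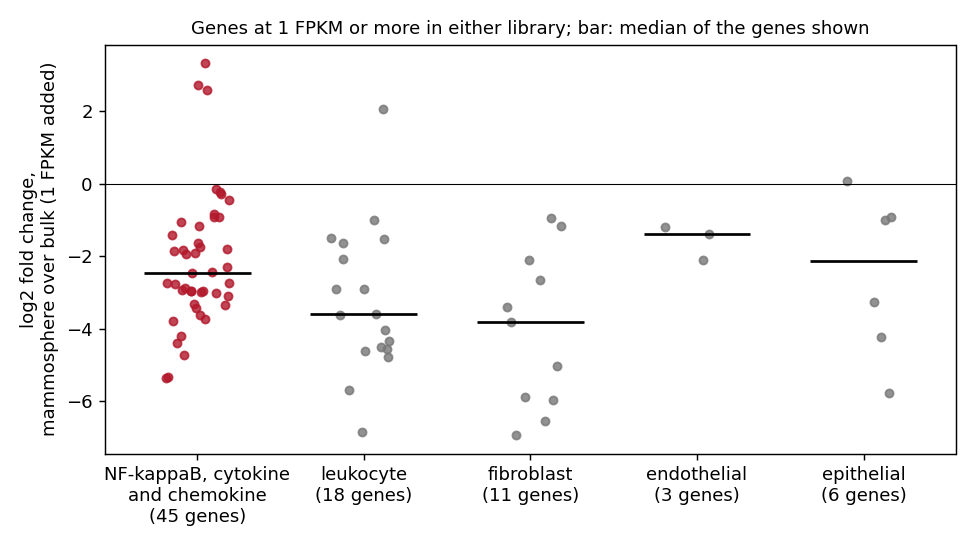
Log2 fold change of mammosphere over bulk cells (1 FPKM added) for genes at 1 FPKM or more in either library, in the NF-kappaB, cytokine and chemokine set and in 4 marker lists. Each point is a gene and each bar the median of its list. The medians are −2.46 for the 45 genes of the set and −3.60 for the 18 leukocyte markers, where the point above 0 is Itgb2.

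In the knockdown comparison few genes of the set reached 2-fold, and few of all rows did. Cbx8 itself was at 1.23 FPKM in the Cbx8 shRNA library and 4.74 in the control shRNA library (3.84-fold lower as a plain ratio); q was 0.385 in the authors' deposited table. Of the 36 measured genes none was at least 2-fold higher and 1 was at least 2-fold lower with 1 FPKM added, against 0.299% and 0.449% of all 10685 rows. At q under 0.05 the authors' deposited table calls none of them, where 0.128% of all rows were higher and 0.0769% lower at that limit. The median log2 fold change was 0.14 for the 36 genes and −0.0061 over all rows, and 23 of the 36 (63.9%) were above 0, against 48.8% of all rows. At 5 FPKM or more in either library the median of the set was −0.0061. At a limit of 1.5-fold, 5 genes were higher (Relb, Nfkbie, Csf1, Ptgs2 and Cxcl12) and 2 lower (Il11 and Ptgds), where 2.1% and 2.18% of all rows were. At 4-fold none was higher and 1 was lower, where 0.0749% and 0.0936% of all rows were.

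The gene past 2-fold was Ptgds, which makes prostaglandin D from the common intermediate, at 0.359 FPKM in the Cbx8 shRNA library and 6.49 in the control shRNA library (log2 fold change −2.46). It had q = 0.471 in the authors' deposited table. The remaining 35 genes lay between −0.75 and 0.92. Within prostaglandin synthesis the cyclooxygenases went opposite ways. Ptgs2 was at 73.2 FPKM in the Cbx8 shRNA library and 47.9 in the control shRNA library (log2 fold change 0.60). Ptgs1 was at 42.9 FPKM in the Cbx8 shRNA library and 62.4 in the control shRNA library (log2 fold change −0.53). Ptges was at 19.0 and 19.8 FPKM in the same order.

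Among the NF-kappaB subunits all 5 values were above 0 but under 2-fold. Relb was at 10.8 FPKM in the Cbx8 shRNA library and 6.35 in the control shRNA library (log2 fold change 0.68). Rela was at 41.9 and 38.1 FPKM in the same order, and Nfkb1 at 36.7 and 32.7 FPKM. Of the inhibitors, Nfkbie was at 3.76 FPKM in the Cbx8 shRNA library and 2.00 in the control shRNA library (log2 fold change 0.67), and Nfkbia at 25.8 and 19.5 FPKM in those libraries (log2 fold change 0.39). Nfkbib was below 0, at 12.5 FPKM with the Cbx8 hairpin and 14.8 with the control hairpin. Tnfaip3 was at 4.09 FPKM in the Cbx8 shRNA library and 2.77 in the control shRNA library (log2 fold change 0.43). Nfkbiz, Birc3, Zc3h12a, Tnip1 and Tnfaip2 lay between −0.09 and 0.18.

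Of the secreted factors, Csf1 was the abundant one that differed most, at 81.6 FPKM in the Cbx8 shRNA library and 50.8 in the control shRNA library (log2 fold change 0.67); q was 0.799 in the authors' deposited table. Il11 was at 5.46 FPKM in the Cbx8 shRNA library and 9.90 in the control shRNA library (log2 fold change −0.75). Cxcl12 was at 1.44 FPKM in the Cbx8 shRNA library and 0.293 in the control shRNA library (log2 fold change 0.92); q was 0.708 in the authors' deposited table. These values are near the minimum for Cxcl12, and with 0.1 FPKM added it passed 2-fold, as did Il33. The chemokines that were abundant in both libraries hardly differed. Ccl2, the most abundant gene of the set here, was at 126 FPKM in the Cbx8 shRNA library and 127 in the control shRNA library, and Cxcl1 was at 54.4 and 56.1 FPKM in the same order. Ccl5 was at 17.8 FPKM in the Cbx8 shRNA library and 24.6 in the control shRNA library (log2 fold change −0.45). The genes that were higher in mammospheres were low in both hairpin libraries. Cxcl5 was at 3.77 FPKM in the Cbx8 shRNA library and 4.07 in the control shRNA library, Csf3 at 2.63 and 1.59 FPKM, and Ccl20 at 1.15 and 0.538 FPKM in the same order.

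Lif, Il6ra, Osmr, Socs3, Il18, Il33, Vcam1, Cxcl16, Ccl7, Rel and Nfkb2 made up the rest of the measured genes, with log2 fold changes between −0.27 for Socs3 and 0.56 for Il33. Icam1, Tnf, Il1a, Il1b, Il1rn, Il6, Csf2, Cxcl2, Cxcl3 and Saa3 had no row in the knockdown table. That table lists no row at 0, and all its 11708 rows were tested by the authors. A missing row therefore does not show a level of 0. Of these 10 genes, 7 were under 1 FPKM in the mammosphere library, while their bulk levels ran from 5.46 to 177 FPKM. None of the other measured pathway genes reached 2-fold in this comparison, where 0.299% of all rows were higher and 0.449% lower. These were 26 receptors and adaptors, 19 kinases and regulators, 23 cytokine and chemokine genes and 9 prostaglandin and leukotriene genes. Of 18 leukocyte markers 3 had a row here, Itgb2 at 69.7 FPKM in the Cbx8 shRNA library and 66.3 in the control shRNA library, and Coro1a and Itgam under 1 FPKM in both. Some markers of the other lists differed between these libraries, and their part in the values of the set was not tested. The endothelial marker Esam was at 0.321 FPKM in the Cbx8 shRNA library and 0.299 in the control shRNA library. The basal keratin Krt14 was at 10.5 FPKM in the Cbx8 shRNA library and 1.09 in the control shRNA library (log2 fold change 2.46); q was 0.0325 in the authors' deposited table. It was the 1 epithelial marker of 4 measured that passed 2-fold. The summed epithelial level was 418 FPKM in the Cbx8 shRNA library and 416.5 in the control shRNA library. Most of it was Krt18, followed by Krt8 (79.3 FPKM) and Krt19 (72.3 FPKM) in the Cbx8 shRNA library. In the control shRNA library Krt19 (90.1 FPKM) came before Krt8 (63.2 FPKM). The 4 fibroblast markers with a row summed to 3.03 FPKM in the Cbx8 shRNA library and 6.57 in the control shRNA library. Among them the collagen Col3a1 was at 0.675 FPKM in the Cbx8 shRNA library and 2.33 in the control shRNA library (log2 fold change −0.99).

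**Figure D4:**
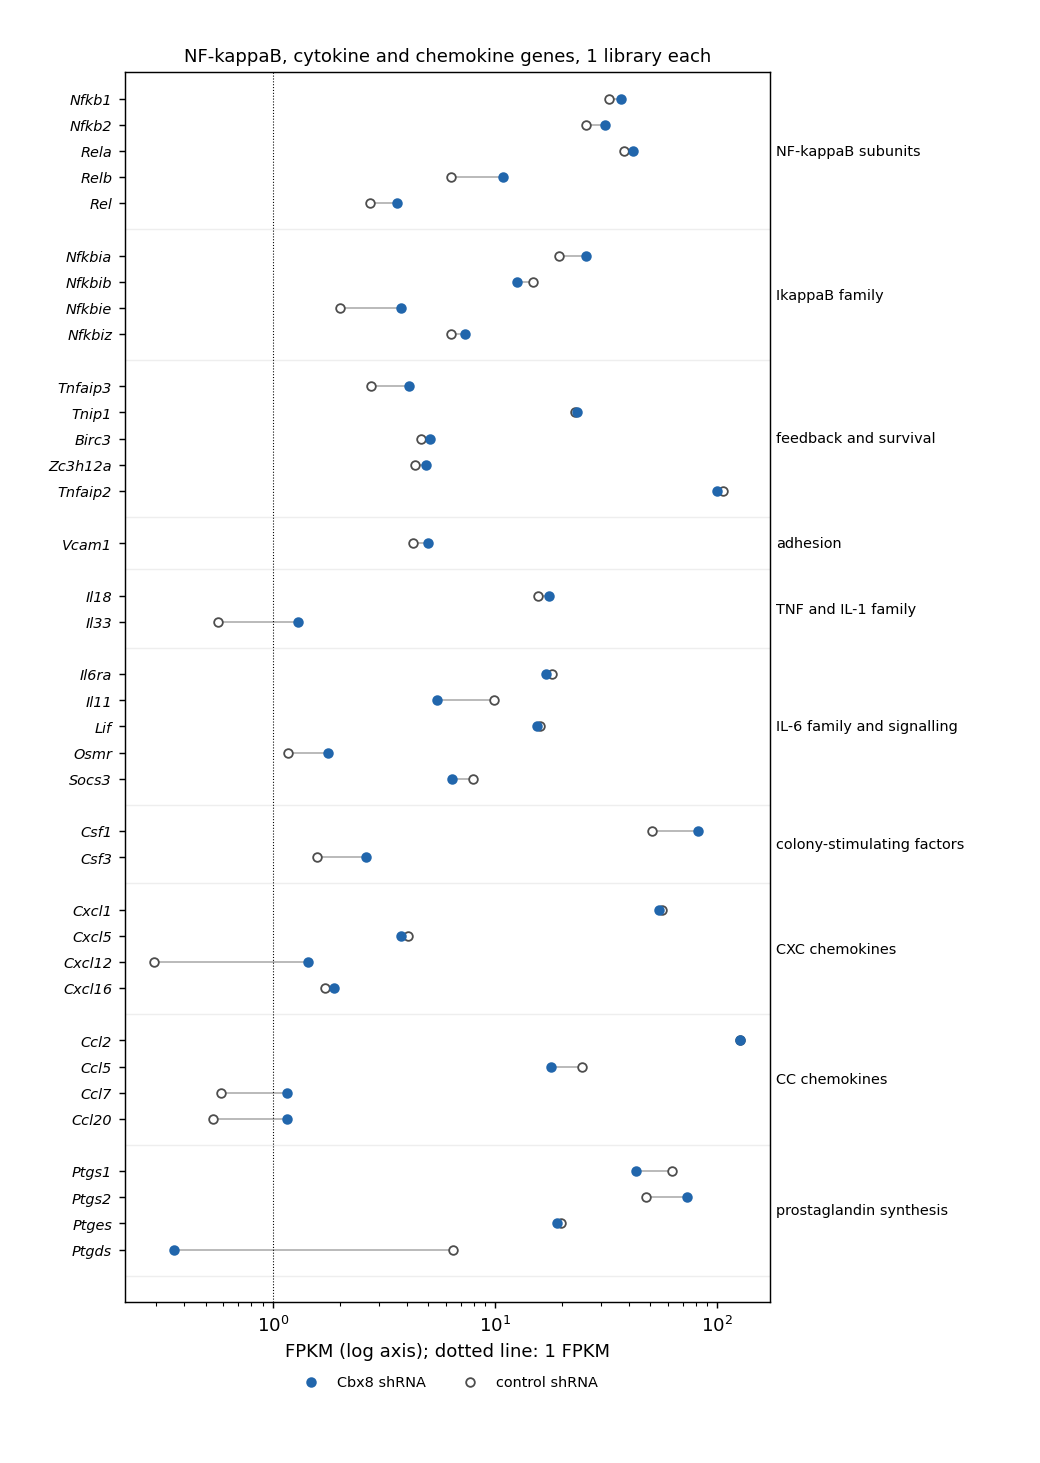
FPKM (log axis) of the 36 genes with a row in the knockdown table, in the Cbx8 shRNA library (filled circles) and the control shRNA library (open circles), 1 library each. Most pairs lie close together, the wider ones being low genes such as Cxcl12, and Ptgds, at 0.359 and 6.49 FPKM, is the widest.

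The comparisons share no library, and each fold change was taken within its own table. Of the 26 genes that were at least 2-fold lower in mammospheres and measured in both tables, 19 had a positive and 7 a negative log2 fold change in the knockdown comparison, with a median of 0.18. Of all 36 measured genes of the set 63.9% were positive and of all rows 48.8%, and the median of the set was −0.0061 at 5 FPKM or more. Tnfaip3, for example, stood at −5.35 in mammospheres over bulk cells and at 0.43 in Cbx8 shRNA over control shRNA, and Il11 at −3.10 and −0.75. Of the 3 genes that were higher in mammospheres, Csf3 and Ccl20 were at 0.49 each and Cxcl5 at −0.09 in the knockdown comparison. None of these knockdown values reached 2-fold.

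**Figure D5:**
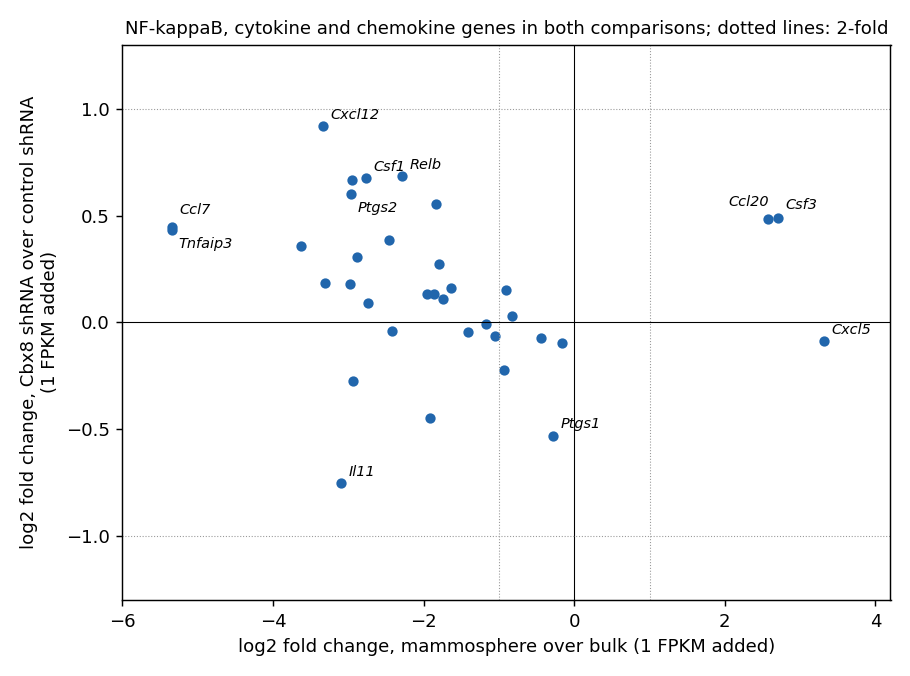
Log2 fold change of Cbx8 shRNA over control shRNA (vertical) against that of mammosphere over bulk cells (horizontal), 1 FPKM added, for the 35 genes at 1 FPKM or more in both tables. Dotted lines mark 2-fold. The horizontal spread runs from −5.35 to 3.32, while all vertical values lie between −0.75 and 0.92.

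Set side by side across the tables, most genes of the set were lower in the control shRNA library than in the bulk library. The 2 tables were normalised separately and the control cells carry a hairpin, so normalisation, hairpin, culture and cell types cannot be told apart. Fibroblast markers summed to 416 FPKM over 12 rows for bulk cells, against 6.57 over 4 rows with the control hairpin. The leukocyte markers Coro1a and Itgam stood at 15.2 and 5.79 FPKM in bulk cells, and at 0.481 and 0.278 with the control hairpin. Itgb2, the remaining leukocyte marker with a row in both tables, was higher with the control hairpin (66.3 against 13.7 FPKM). How far such markers bear on the set was not tested. Of 35 genes of the set measured in both tables, 26 were at least 2-fold lower in the control shRNA library than in the bulk library and none was 2-fold higher, where 7.78% and 16.8% of the 10378 genes in both tables were. The median log2 ratio of control shRNA over bulk was −1.97 for the 35 genes and 0.38 over all. Cxcl1 stood at 56.1 FPKM with the control hairpin, 669 in mammospheres and 1774 in bulk cells. Nfkbia stood at 19.5 FPKM with the control hairpin, 88.0 in mammospheres and 488 in bulk cells. Nfkbiz was at 6.35, 24.0 and 196 FPKM in the same order, and Tnfaip3 at 2.77, 1.71 and 109.5 FPKM. Against mammosphere and bulk cells together, the control shRNA level was below both for 15 of the 35 genes, Cxcl1, Nfkbia and Nfkbiz included, between them for 18 and above both for 2, Tnfaip2 and Il6ra. The 3 genes that were higher in mammospheres were among the 15. Cxcl5 stood at 4.07 FPKM with the control hairpin, 78.7 in mammospheres and 6.99 in bulk cells, Csf3 at 1.59, 124 and 18.2 FPKM, and Ccl20 at 0.538, 22.3 and 2.91 FPKM in the same order.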

How the data were processed

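The data were 4 libraries of polyadenylated RNA, 1 per group, read as 100-base single ends per the labels' protocols. The submitters' processing notes name build mm9, Cuffdiff (with 0.0.7 as its version), Cufflinks 1.3.0, TopHat 1.4.0 and FastQC 0.10.0. The authors deposited 2 Cuffdiff tables with FPKM per gene, and the deposited tables hold a p-value with its q-value per row, quoted as the authors'. Use of strand in counting: not given in the sources used here. Members (the genes of the set), lists and settings were chosen with earlier results of these data known.

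Log2 fold changes with 1 FPKM added were computed within each table, over rows at 1 FPKM or more in either library and without rows marked failed or too deep, using Python 3.11.15 and pandas 2.3.3. No test was run, as each group has 1 library. Named genes were all members, Cbx8, and genes among the 4 with the largest absolute change in each other list, and a few neighbouring chemokines and marker genes were named after their values were seen. Of the members, 5 overlap another row in the table (Nfkb2, Nfkbib, Il1a, Il1b and Cxcl16). Depth is unknown, so no counting interval was possible. The counting step was checked on simulated data, with known changes larger than the limit put on well-expressed rows only. That check does not cover genes at low levels. Alternatives were other pseudocounts, minimums, fold limits, scalings and row choices and the authors' own calls.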

Additional observations from a re-analysis of the deposited data

How the results depend on the processing

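In mammospheres over bulk cells the 3 higher genes stayed 3 under every alternative run, and the count of lower genes stayed between 25 and 38 (35 as reported) in the settings other than those given next. Counting only rows the authors tested gave 21 lower genes, and the authors' own calls gave 19. The median log2 fold change of −2.46 became −2.85 with 0.1 FPKM added, −1.73 with 5 FPKM added, −2.44 without a minimum, −2.60 at 5 FPKM or more, −2.25 after centring, −2.14 with equal upper quartiles and −1.93 over tested rows.

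In Cbx8 shRNA over control shRNA the count of higher genes was 2 with 0.1 FPKM added and 5 at a 1.5-fold limit, against 0. The count of lower genes was 2 at that limit and 0 by the authors' calls, against 1. The median of 0.14 became 0.16 with 0.1 FPKM added, 0.11 with 5 FPKM added, 0.15 after centring, 0.11 with equal upper quartiles and −0.0061 at 5 FPKM or more, where its sign turned. Fewer rows enter that median and the tested-row counts, and the cause of the other shifts was not tested. No called gene changed sign under 5 alternatives. No paired analysis was possible because each group has 1 library. Depth is unknown, so the precision of low values cannot be given.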

Other observations

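Some other genes of the set took other positions in the control shRNA library (the 2 tables were normalised separately). Csf1 stood at 50.8 FPKM with the control hairpin, 13.4 in mammospheres and 97.2 in bulk cells. Tnfaip2 stood at 106 FPKM with the control hairpin, above 60.7 in mammospheres and 67.9 in bulk cells. Ptgds, the gene of the set with the widest difference under Cbx8 shRNA, stood at 6.49 FPKM with the control hairpin and under 1 FPKM in the other 3. Ptgds is not among the 35 genes measured in both tables, since it was under 1 FPKM in both libraries of the mammosphere table.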
